A study of Mus musculus with 10 samples.

Results

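A list of 10 genes known for their expression in plasmacytoid dendritic cells (pDCs) was followed in sorted splenic conventional type 1 dendritic cells (cDC1s) of 4 mouse genotypes: Siglech, Cd300c, Upb1, Spib, Runx2, Bcl11a, Ptcra, Dntt, Cox6a2 and Lefty1. A gene was measured where a probe set of the array was annotated to its symbol alone, and 9 of the 10 genes had exactly 1 such probe set, among 19938 genes with one in all. Runx2, a Runt family transcription factor of pDCs and bone, had none in the annotation used and has no value here. Levels are log2 of the deposited intensity, and differences are log2 fold changes with 95% confidence intervals in brackets.

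The 4 genotypes were Zeb2 Id2 DKO and Nfil3 Zeb2 DKO with 2 arrays each, and Zeb2 KO and WT with 3 each, where KO and DKO are read as single and double knockout. All 3 mutant genotypes were labelled as lacking Zeb2, so Zeb2 KO was the group that differed from Zeb2 Id2 DKO in the labelled state of Id2 alone, and no group lacked Id2 alone. The sources used here do not give the deleted alleles, any Cre driver, the strain and age of the mice or the sorting gate. The labels do not say whether replicates were separate animals, so p-values measure the spread between these arrays, which may be technical.

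Plasmacytoid DCs are the dendritic cells specialised in sensing nucleic acids through endosomal Toll-like receptors and in producing type I interferon. Their identity depends on the E protein Tcf4, a basic helix-loop-helix factor that binds the E-box CANNTG. Id2 has a helix-loop-helix domain without the basic DNA-binding part, pairs with E proteins and keeps them off DNA, and it is abundant in cDC1s and low in pDCs. Zeb2 is a zinc finger repressor that acts on Id2 in dendritic cell progenitors, and Nfil3 acts upstream of Zeb2.

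Siglech and Cd300c, both cell surface receptors, had the largest rises of the 9 genes in the arrays labelled as lacking Id2. The enzyme gene Upb1 had a smaller rise, which passed the test described below against WT and Nfil3 Zeb2 DKO but not Zeb2 KO. Lefty1 had a larger estimate than Upb1 in each of these 3 comparisons, but passed in none. The promoters of Siglech, Cd300c and Upb1 are shown because the E-box is the motif that E proteins bind. They are the 220 bases from 250 to 31 before the RefSeq start (build GRCm38.p6), written 5′ to 3′ on the gene's strand, with each CANNTG in capitals. They lie at chr7:55767934-55768153 (plus strand) for Siglech, chr11:114960538-114960757 (minus strand) for Cd300c and chr10:75406661-75406880 (plus strand) for Upb1. The gene annotation gives Siglech a start at 55768154, directly after its window, so that window is set from a different start.
Siglech: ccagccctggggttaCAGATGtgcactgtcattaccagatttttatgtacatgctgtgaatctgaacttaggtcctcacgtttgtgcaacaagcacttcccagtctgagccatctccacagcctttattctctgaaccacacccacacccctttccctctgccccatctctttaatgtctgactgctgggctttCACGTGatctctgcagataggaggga
Cd300c: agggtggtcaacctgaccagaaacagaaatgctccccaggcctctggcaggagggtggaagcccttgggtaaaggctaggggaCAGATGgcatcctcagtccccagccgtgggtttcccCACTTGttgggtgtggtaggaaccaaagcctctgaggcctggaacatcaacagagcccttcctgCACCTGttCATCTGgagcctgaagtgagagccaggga
Upb1: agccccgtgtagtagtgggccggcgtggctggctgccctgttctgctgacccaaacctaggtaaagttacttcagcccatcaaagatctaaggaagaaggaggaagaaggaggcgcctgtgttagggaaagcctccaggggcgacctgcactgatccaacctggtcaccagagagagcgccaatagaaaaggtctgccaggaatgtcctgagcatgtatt
The Siglech window held 2 E-boxes and that of Cd300c held 4, while that of Upb1 held 0. Over all 32851 promoters of the table, 62.1% had at least 1 E-box in this window and 27.4% had 2 or more. Only the Cd300c window held CAGGTG, counted on either strand (its reverse complement is CACCTG), among the 8 genes with a promoter in the table, and 15.5% of all promoters had it. It was also the only 1 of the 8 with 2 copies of GAAA set 2 bases apart, a motif bound by interferon regulatory factors, which 2.63% of all promoters had on either strand. Among genes that did not pass the test of a difference described below, Dntt had 3 E-boxes, Spib and Ptcra 2 each and Bcl11a 1, and Runx2 had 1. These matches describe the letters of 1 window per gene and no binding was measured.

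Id2 itself read 5.01 and 4.98 where it was labelled as lost, against 9.89 to 10.50 in the other 8 arrays, and Nfil3 was lower by 3.84 log2 in Nfil3 Zeb2 DKO than in WT (limma adjusted p = 0.000622). The Zeb2 probe set was not lower in the groups labelled as lacking Zeb2: its log2 fold change against WT was 0.72 in Zeb2 Id2 DKO, 0.27 in Nfil3 Zeb2 DKO and -0.16 in Zeb2 KO, and none passed the test. The sources used here do not say where that probe set lies relative to the deletion, so Zeb2 loss was not checked by these values. Array medians were 76.3 to 82.9 in intensity and arrays of 1 genotype correlated at 0.986 to 0.997, with Zeb2 KO replicate 3 the least like its group. Of all 19938 genes, 286, 99 and 158 passed the test between Zeb2 Id2 DKO and WT, Zeb2 KO and Nfil3 Zeb2 DKO, so most genes did not. Of 12 cDC1 identity genes, 11 did not pass in any of these 3 comparisons. Against WT, intervals of the uncalled Cd8a (-0.52 [-0.80 to -0.23]), Itgae (0.56 [0.12 to 0.99]) and Tlr3 (0.33 [0.11 to 0.56]) excluded 0. Cadm1, an adhesion molecule of cDC1s, was lower in all 3, by 0.87, 0.66 and 0.73 log2 against WT, Zeb2 KO and Nfil3 Zeb2 DKO. The last fall lost its call without either array of the 2 genotypes compared, and the fall against Zeb2 KO without either Zeb2 Id2 DKO array.

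Siglech encodes Siglec-H, a sialic acid-binding-like lectin that signals through the adaptor DAP12 and is the usual surface marker of mouse pDCs. Its level was 8.07 and 7.90 in Zeb2 Id2 DKO and 5.93, 5.99 and 6.31 in Zeb2 KO. It was 5.97, 6.56 and 6.42 in WT and 6.87 and 6.53 in Nfil3 Zeb2 DKO. Both Zeb2 Id2 DKO arrays thus lay above all 8 others, with a gap larger than the spread within any genotype, and WT overlapped both other mutants, which did not overlap each other. The rise was 3.75-fold against Zeb2 KO (1.91 [1.51 to 2.31], adjusted p = 0.00128) and 2.44-fold against Nfil3 Zeb2 DKO (1.28 [0.84 to 1.73], adjusted p = 0.0149), beside 1.67 log2 against WT. The comparisons with Zeb2 Id2 DKO share its 2 arrays and are not independent of each other. Relative to all genes, Siglech moved from percentile 46.6 in WT and 41.8 in Zeb2 KO to 72.0 in Zeb2 Id2 DKO. The rise against Nfil3 Zeb2 DKO lost its call without any 1 of the 4 arrays compared (adjusted p up to 0.142), while those against WT and Zeb2 KO kept theirs under every 1 of the 19 alternative settings. In RNA from a sorted population, more cells of a type and more RNA per cell cannot be told apart.

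Cd300c encodes an activating receptor of the CD300 family. Its level was 9.97 and 9.60 in Zeb2 Id2 DKO, 8.36, 7.88 and 8.16 in Zeb2 KO, 8.57, 9.04 and 9.05 in WT, and 8.69 and 8.83 in Nfil3 Zeb2 DKO. Both Zeb2 Id2 DKO arrays were again above all 8 others, while Zeb2 KO was the lowest group and did not overlap WT. Cd300c rose 3.14-fold against Zeb2 KO (1.65 [1.25 to 2.05], adjusted p = 0.00292), 1.87-fold against WT (0.90 [0.50 to 1.30], adjusted p = 0.0383) and 2.03-fold against Nfil3 Zeb2 DKO (1.03 [0.59 to 1.46], adjusted p = 0.0472). The difference between Zeb2 KO and WT (-0.75 [-1.11 to -0.39]) did not pass the test (limma adjusted p = 0.213). The rise against Zeb2 KO lost its call without Zeb2 Id2 DKO replicate 1 (adjusted p = 0.0550). The rise against WT lost it without any 1 array of Zeb2 Id2 DKO, of WT or of Nfil3 Zeb2 DKO (up to 0.399), and that against Nfil3 Zeb2 DKO without those arrays except WT replicate 1 (up to 0.374). Cd300c2, a paralog in the same receptor family, went the other way in value against WT: 9.08 and 9.02 in Zeb2 Id2 DKO against 9.50, 9.71 and 9.87. That difference of -0.64 [-0.96 to -0.32] did not pass (adjusted p = 0.0661), but did without WT replicate 1 (0.0477), Zeb2 KO replicate 1 (0.0214) or Zeb2 KO replicate 3 (0.0272). Zeb2 KO read 9.56, 9.10 and 9.14 for Cd300c2, and the difference from it was smaller, at -0.21 [-0.53 to 0.11] (limma adjusted p = 0.859).

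Upb1 encodes beta-ureidopropionase, the last enzyme of pyrimidine breakdown. Its level was 6.55 and 6.82 in Zeb2 Id2 DKO, 6.10 and 6.12 in Nfil3 Zeb2 DKO, 6.16, 6.17 and 6.22 in WT, and 6.20, 6.26 and 6.37 in Zeb2 KO. Both Zeb2 Id2 DKO arrays exceeded all others, by a smaller gap than for the receptors. Upb1 rose 1.42-fold against WT (0.50 [0.29 to 0.71], adjusted p = 0.0311) and 1.49-fold against Nfil3 Zeb2 DKO (0.58 [0.34 to 0.81], adjusted p = 0.037). Against Zeb2 KO its difference of 0.41 [0.20 to 0.62] did not pass (limma adjusted p = 0.144). Without any 1 array of Nfil3 Zeb2 DKO or of WT, or without Zeb2 Id2 DKO replicate 2, the rise against WT was not called (adjusted p up to 0.332). The rise against Nfil3 Zeb2 DKO was not called without any 1 array of Zeb2 Id2 DKO, Nfil3 Zeb2 DKO or WT, or without Zeb2 KO replicate 2 (up to 0.297).

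**Figure D1:**
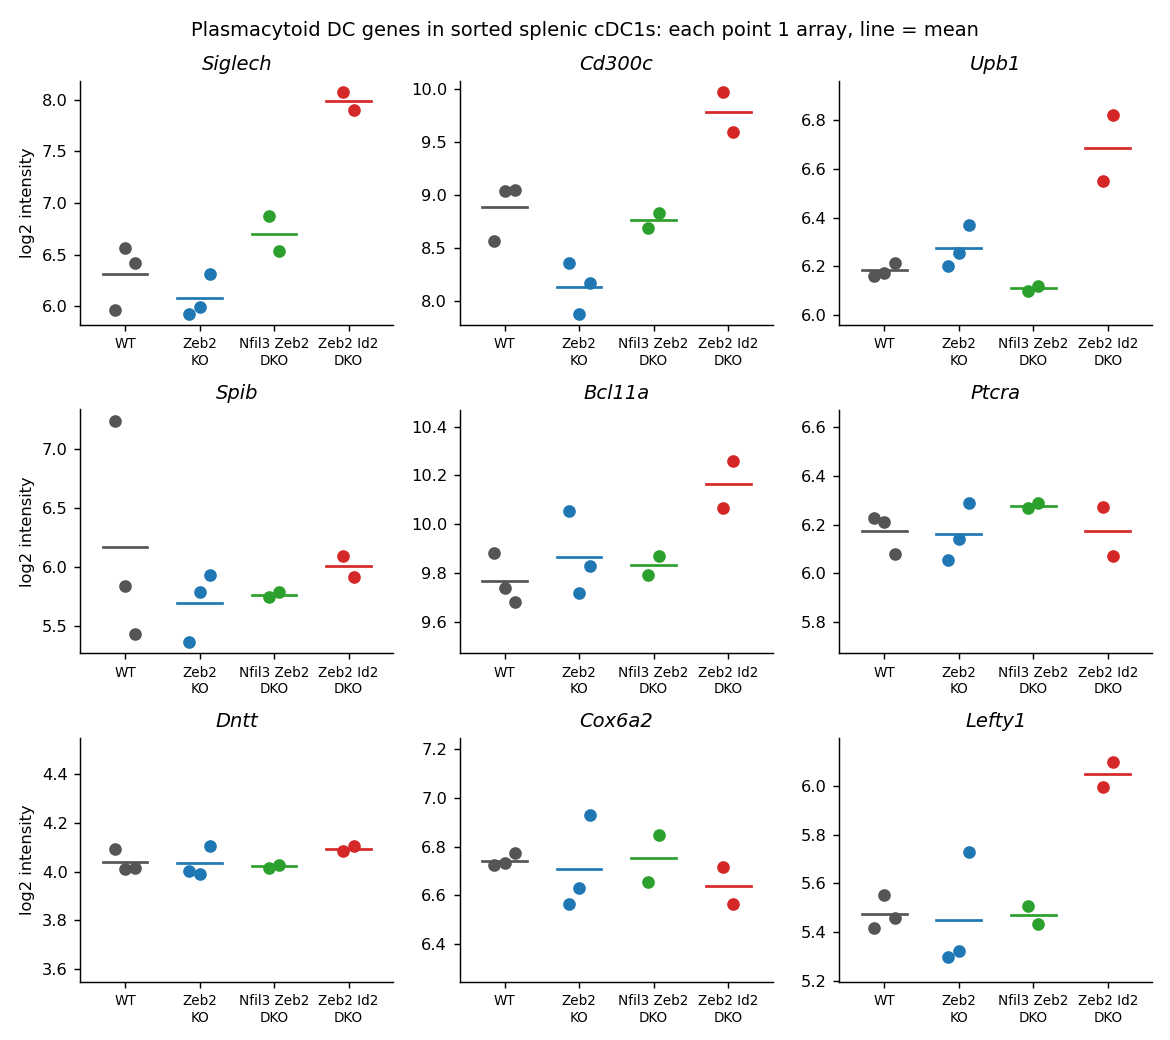
Log2 intensity (y axis) of the 9 measured pDC genes in each array, by genotype (x axis); each point is 1 array and each line the genotype mean, and every panel has its own y range of at least 1. Siglech, Cd300c, Upb1, Bcl11a and Lefty1 have both Zeb2 Id2 DKO points above all 8 others.

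Spib and Bcl11a are transcription factors of pDCs, an ETS family member related to Spi1 and a zinc finger protein. Bcl11a was already high, at 9.79 and 9.87 in Nfil3 Zeb2 DKO, 9.88, 9.74 and 9.68 in WT and 10.05, 9.72 and 9.83 in Zeb2 KO. It was 10.07 and 10.26 in Zeb2 Id2 DKO, above every other array, though above the highest Zeb2 KO array by little. Its differences, 0.40 [0.14 to 0.65] against WT, 0.30 [0.04 to 0.55] against Zeb2 KO and 0.33 [0.06 to 0.61] against Nfil3 Zeb2 DKO, did not pass the test (adjusted p = 0.161, 0.551 and 0.328). Bcl11a ranked at percentile 92.3 of all genes in WT and 94.5 in Zeb2 Id2 DKO.

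Spib was 6.10 and 5.92 in Zeb2 Id2 DKO, 5.75 and 5.79 in Nfil3 Zeb2 DKO and 5.36, 5.79 and 5.94 in Zeb2 KO. In WT it was 5.84 and 5.44 in replicates 2 and 3 and 7.24 in replicate 1, which stood apart from all 9 other arrays. The differences of Spib were 0.31 [-0.59 to 1.20] against Zeb2 KO and -0.17 [-1.06 to 0.73] against WT, and neither passed (limma adjusted p = 0.934 and 0.975). These intervals are wide enough to hold a rise of more than the size seen for Upb1.

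Spib is also a B cell gene, and B cell genes were uneven across arrays. The mean log2 level of 9 measured B cell markers was 7.91 in WT replicate 1 and 7.37 in Zeb2 KO replicate 2, against 6.23 to 6.72 in the other 8 arrays. In WT replicate 1, 7 of the 9 markers were at their highest among WT arrays, and in Zeb2 KO replicate 2 all 9 were at their highest among Zeb2 KO arrays. Their summed intensity ranged over 985 to 994 in Zeb2 Id2 DKO, 961 to 1032 in Nfil3 Zeb2 DKO, 759 to 1555 in Zeb2 KO and 1062 to 2538 in WT. Ly6d, an early B lineage and pDC surface protein, was likewise highest in WT replicate 1, at 8.28 against 6.09 and 6.44 in the other WT arrays. It was 7.39 in Zeb2 KO replicate 2, 7.58 and 7.32 in Zeb2 Id2 DKO, and 5.98 to 6.69 elsewhere. Its differences, 0.51 [-0.72 to 1.74] against WT and 0.76 [-0.47 to 1.98] against Zeb2 KO, did not pass (limma adjusted p = 0.917 and 0.868). Spib in Zeb2 KO replicate 2 was 5.79, between the other 2 Zeb2 KO arrays. The part of B cell RNA in the Spib values was not tested.

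**Figure D2:**
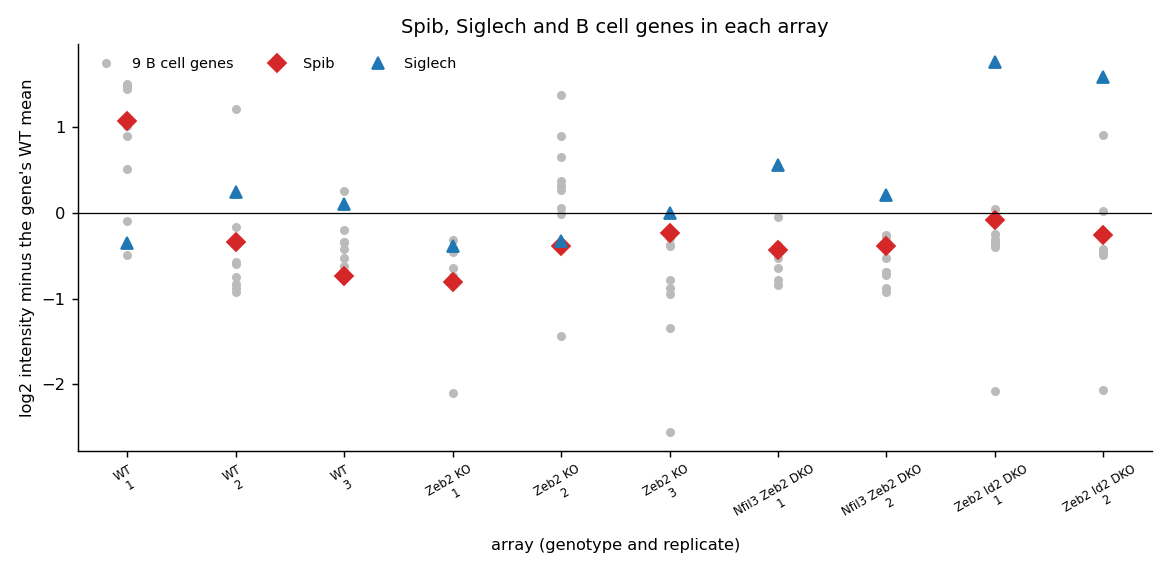
Log2 intensity of each gene minus its WT mean (y axis) in each of the 10 arrays (x axis, genotype and replicate), for Spib (diamonds), Siglech (triangles) and 9 B cell markers (grey points). Spib is highest in WT replicate 1, where most B cell markers are also above their WT mean, while Siglech is highest in the 2 Zeb2 Id2 DKO arrays.

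Ptcra, the pre-T cell receptor alpha chain, and Dntt, the template-free DNA polymerase of antigen receptor rearrangement, are lymphoid genes that pDCs also express. Ptcra was 6.27 and 6.07 in Zeb2 Id2 DKO and 6.06 to 6.29 over the other 8 arrays, so the former lay within the range of the latter, and WT and Nfil3 Zeb2 DKO did not overlap each other. Its differences were 0.00 [-0.22 to 0.22] against WT, 0.01 [-0.21 to 0.23] against Zeb2 KO and -0.11 [-0.35 to 0.13] against Nfil3 Zeb2 DKO. Dntt was 4.08 and 4.11 in Zeb2 Id2 DKO and 3.99 to 4.10 in the others, with differences of 0.06 [-0.11 to 0.23] against both WT and Zeb2 KO. Neither gene passed the test, and the upper ends of these intervals lay below the lower ends of those of Siglech and Cd300c.

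Cox6a2 encodes the heart and muscle form of a cytochrome c oxidase subunit and is a known pDC gene, and Lefty1 encodes a secreted inhibitor of Nodal signalling. Cox6a2 was 6.72 and 6.56 in Zeb2 Id2 DKO and 6.56 to 6.93 elsewhere, with differences of -0.10 [-0.36 to 0.16] against WT and -0.07 [-0.32 to 0.19] against Zeb2 KO that did not pass. Lefty1 was 6.0 and 6.10 in Zeb2 Id2 DKO, 5.51 and 5.43 in Nfil3 Zeb2 DKO, 5.42, 5.55 and 5.46 in WT and 5.30, 5.32 and 5.73 in Zeb2 KO. Both Zeb2 Id2 DKO arrays were thus above the other 8, by the least over Zeb2 KO replicate 3. The differences of Lefty1 were 0.57 [0.29 to 0.85] against WT, 0.60 [0.32 to 0.88] against Zeb2 KO and 0.58 [0.27 to 0.88] against Nfil3 Zeb2 DKO, and none passed (limma adjusted p = 0.0587, 0.0914 and 0.0931). Without Zeb2 KO replicate 3 all 3 passed, at adjusted p = 0.0021, 0.00333 and 0.00487. The ubiquitous paralog Cox6a1 differed by 0.06 and Lefty2 by -0.34 against WT, and neither passed.

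**Figure D3:**
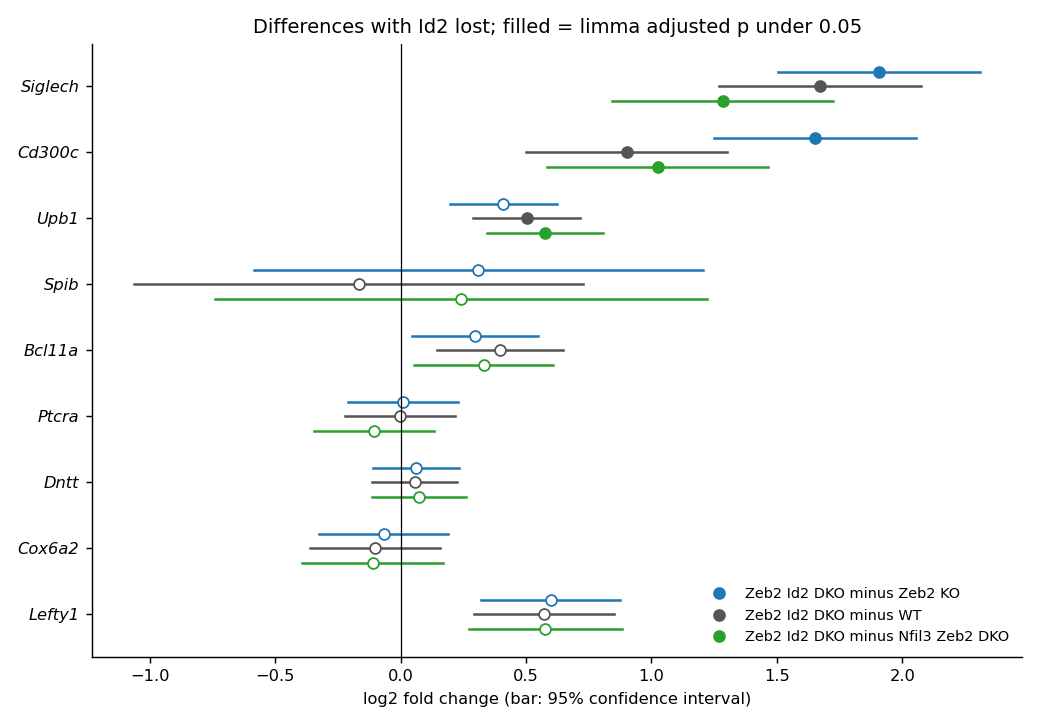
Log2 fold changes (x axis) of the 9 measured pDC genes (y axis) between Zeb2 Id2 DKO and each other genotype; points are estimates, bars 95% confidence intervals, and filled points have a limma adjusted p under 0.05. Siglech and Cd300c are filled in all 3 comparisons and Upb1 against WT and Nfil3 Zeb2 DKO, while the intervals of Spib, Ptcra, Dntt and Cox6a2 include 0 in each.

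In Zeb2 Id2 DKO, 3 of the 9 genes were higher than in WT (background: 0.878% of all genes were called higher), 2 of 9 than in Zeb2 KO (0.366%) and 3 of 9 than in Nfil3 Zeb2 DKO (0.582%). None of the 9 was lower (0.557%, 0.130% and 0.211% of all genes), and the unadjusted p was under 0.05 for 5 of the 9 in each comparison, against 10.2%, 7.35% and 11.5% of all genes. The median log2 fold change of the 9 was 0.40, 0.31 and 0.33 against WT, Zeb2 KO and Nfil3 Zeb2 DKO, while that of all genes was -0.01, -0.01 and -0.03. Both Zeb2 Id2 DKO arrays exceeded all 8 others for 5 of the 9, as they did for 5.01% of all genes. The genes were listed for their pDC expression and with earlier results of these arrays known, so these shares describe the list only.

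Among genotypes with Id2 intact, limma called none of the 9 genes. Zeb2 KO against WT had 0.0201% of all genes called, and Nfil3 Zeb2 DKO against WT and against Zeb2 KO had 0.00502% each. These small shares changed with single arrays. Without Zeb2 KO replicate 3, called genes went from 4 to 165 between Zeb2 KO and WT and from 1 to 106 between Nfil3 Zeb2 DKO and Zeb2 KO. Between Nfil3 Zeb2 DKO and WT they went from 1 to 7. Without WT replicate 1, the first count was 22, and it was 0 without WT replicate 2 or Zeb2 KO replicate 1 or 2. At an unadjusted p under 0.05 there was 1 of 9 between Zeb2 KO and WT (Cd300c), 0 between Nfil3 Zeb2 DKO and WT, and 2 between Nfil3 Zeb2 DKO and Zeb2 KO, where 7.39%, 4.16% and 8.50% of all genes were under it. These last were Siglech and Cd300c, higher in Nfil3 Zeb2 DKO by 0.62 [0.22 to 1.03] and 0.63 [0.23 to 1.03], both at a limma adjusted p of 0.394. For Siglech the genotypes thus stood in the order Zeb2 Id2 DKO (7.99 ± 0.12, SD, n = 2), Nfil3 Zeb2 DKO (6.70 ± 0.24, n = 2), WT (6.31 ± 0.31, n = 3) and Zeb2 KO (6.08 ± 0.21, n = 3), and of the neighbours only the first pair passed. For Cd300c the order was Zeb2 Id2 DKO (9.79 ± 0.26, n = 2), WT (8.88 ± 0.28, n = 3), Nfil3 Zeb2 DKO (8.76 ± 0.10, n = 2) and Zeb2 KO (8.13 ± 0.24, n = 3), again with only the first neighbours past the test.

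Whether a gene stood at background was read against 1194 olfactory and vomeronasal receptor genes, which dendritic cells are not known to use. Their median log2 level was 4.06 to 4.09 in the 4 genotypes and their 95th percentile 5.83 in Zeb2 Id2 DKO, 5.95 in Nfil3 Zeb2 DKO, 5.87 in Zeb2 KO and 5.89 in WT. Levels of different probe sets also depend on their probes, so this is a range and not a threshold of expression. Dntt lay at the middle of the receptor genes in every genotype, at percentile 49.2 of them in WT and 51.0 in Zeb2 Id2 DKO. Lefty1 was within the receptor range in WT, Zeb2 KO and Nfil3 Zeb2 DKO (means 5.48, 5.45 and 5.47) and above it in Zeb2 Id2 DKO (6.05 ± 0.07, n = 2). Spib was within it in Zeb2 KO (5.70) and Nfil3 Zeb2 DKO (5.77) and above it in WT (6.17 ± 0.95, n = 3) and Zeb2 Id2 DKO (6.01 ± 0.12, n = 2), in WT through replicate 1 alone. Siglech, Upb1, Ptcra and Cox6a2 were above it in all 4 genotypes but in the middle of all genes in WT, at percentiles 46.6, 43.9, 43.7 and 54.4, and Cd300c and Bcl11a ranked at 83.9 and 92.3.

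**Figure D4:**
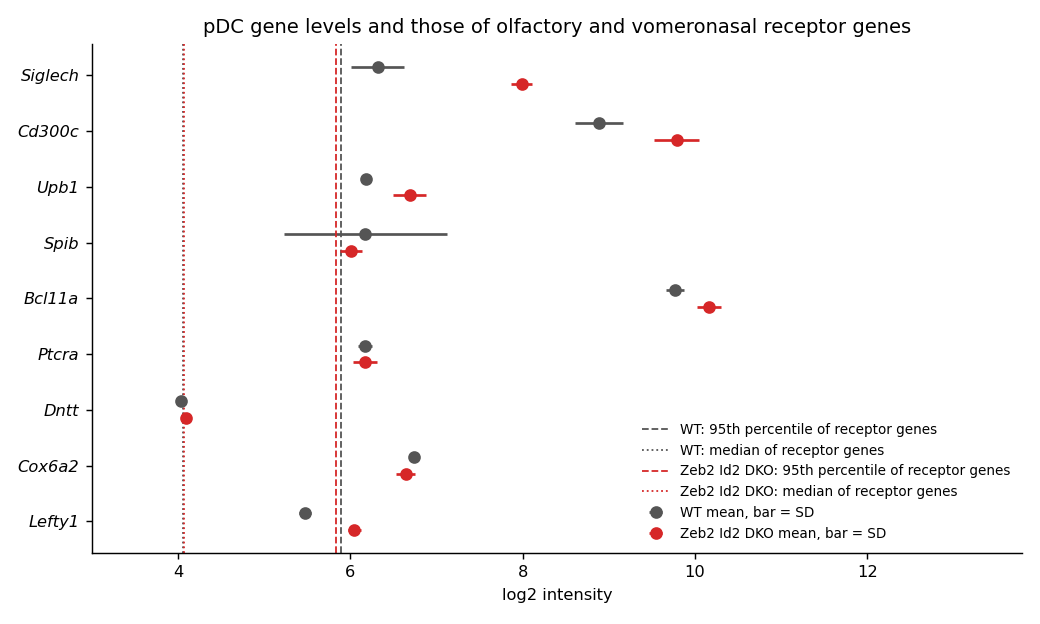
Mean log2 intensity (x axis, bars SD) of the 9 measured pDC genes (y axis) in WT (grey, n = 3) and Zeb2 Id2 DKO (red, n = 2); vertical lines give the median (dotted) and 95th percentile (dashed) of 1194 olfactory and vomeronasal receptor genes. Dntt lies at the median line in both, and Lefty1 lies below the 95th percentile in WT and above it in Zeb2 Id2 DKO.

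Most other genes known from pDCs did not pass the test. Their list was also chosen with earlier results of these arrays known, so its shares describe the list only. Of 26 measured among 29 listed, Zeb2 Id2 DKO had 3 higher than in WT (0.878% of all genes), 1 than in Zeb2 KO (0.366%) and 1 than in Nfil3 Zeb2 DKO (0.582%), and 0 were lower. Their median log2 fold changes were 0.09, 0.18 and 0.13, and against WT 16 of the 26 were positive. Against WT, intervals of the uncalled Cd209d (-1.01 [-1.69 to -0.33]), Klra17 (-0.81 [-1.29 to -0.33]) and Xbp1 (-0.34 [-0.51 to -0.16]) lay below 0. Those of the uncalled Lair1, Plac8, Pltp and Rpgrip1 lay above 0. Leaving out 1 array gave 0 to 4, 0 to 1 and 0 to 3 called higher. Called lower were then 0 to 2, 0 to 1 and 0 to 1. Bst2, a virus-tethering membrane protein used as a pDC marker, was 11.54 and 11.66 in Zeb2 Id2 DKO against 10.12 to 10.90 in the other 8 arrays, and rose by 0.98 against WT (adjusted p = 0.034) and 1.05 against Zeb2 KO (0.0488). Irf7, the transcription factor that drives interferon genes, was 11.36 and 11.77 against 10.07 to 11.00, and rose by 1.33 against WT (adjusted p = 0.0212) and 1.32 against Nfil3 Zeb2 DKO (0.048). Against Zeb2 KO its difference of 0.93 did not pass (limma adjusted p = 0.178). Tlr9, the endosomal DNA receptor, was 10.55 and 10.64 against 9.78 to 10.27, and rose by 0.61 against WT (adjusted p = 0.0461) but did not pass against Zeb2 KO.

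All 3 genes were thus highest in the Zeb2 Id2 DKO arrays, yet each call depended on single arrays. Against WT, Bst2 lost it without any 1 array other than those of Zeb2 KO, and Irf7 without either array of Zeb2 Id2 DKO or without replicate 2 or 3 of WT. Tlr9 lost it without any 1 array other than WT replicate 2 and Zeb2 KO replicate 3. The call of Bst2 against Zeb2 KO and that of Irf7 against Nfil3 Zeb2 DKO were lost without any 1 array other than Zeb2 KO replicates 1 and 3. Among 11 measured genes of nucleic acid sensing and interferon production, Irf7 and Tlr9 were again the ones called, and 0 were called against Zeb2 KO. Tlr7, the RNA receptor of pDCs, stayed within the receptor range in every genotype, as did Mctp2 and Klra17.

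Bst2 and Irf7 are also interferon-stimulated genes. Of 14 measured genes of an interferon-stimulated list that holds both, 10, 10 and 9 were higher in Zeb2 Id2 DKO against WT, Zeb2 KO and Nfil3 Zeb2 DKO, with medians of 1.25, 1.12 and 1.42 log2, where 0.878%, 0.366% and 0.582% of all genes were called higher. The smallest p-values were those of Ifit3, Oasl2, Ifit2, Ifit1, Cmpk2 and Oasl1, and leaving out 1 array gave 6 to 13, 4 to 10 and 5 to 13 of the 14. Their summed intensity was 9939 to 13265 in Zeb2 Id2 DKO, against 4729 to 5139 in WT, 4560 to 6253 in Zeb2 KO and 4433 to 5151 in Nfil3 Zeb2 DKO. The part of an interferon response in the pDC gene values was not tested.

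**Figure D5:**
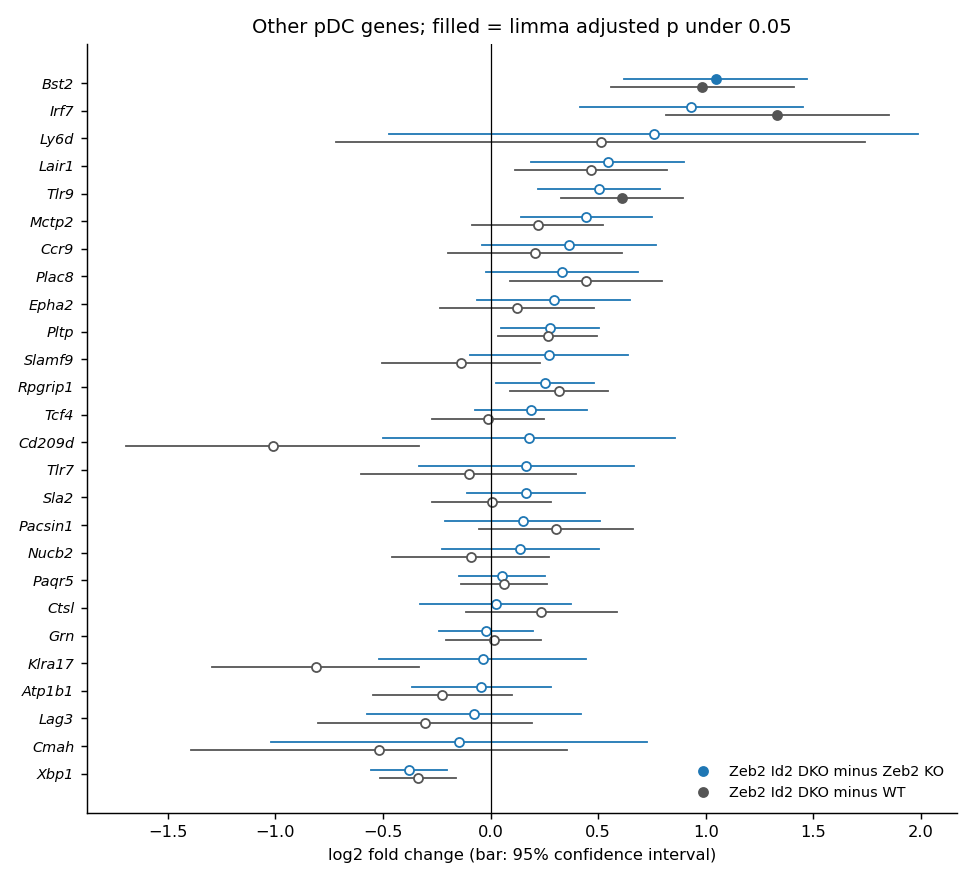
Log2 fold changes (x axis, bars 95% confidence intervals) of 26 other pDC genes (y axis, ordered by the difference from Zeb2 KO) in Zeb2 Id2 DKO against Zeb2 KO (blue) and WT (grey); filled points have a limma adjusted p under 0.05. Only Bst2 is filled in blue, and Bst2, Irf7 and Tlr9 in grey.

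The E proteins that Id2 binds did not pass the test. Tcf4 differed by -0.01, 0.19 and 0.01 log2 between Zeb2 Id2 DKO and WT, Zeb2 KO and Nfil3 Zeb2 DKO, Tcf3 by 0.02, -0.05 and 0.19, and Tcf12 by 0.14, 0.10 and 0.14. Tcf4 was 8.69 and 8.59 in Zeb2 Id2 DKO, inside its range of 8.23 to 8.76 in the other arrays. Of 7 measured E and ID protein genes, Id2 alone was called. None of 15 early lymphoid genes and none of 19 paralogs and partners of the 10 genes was called in any of these 3 comparisons. Of all genes, 0.878%, 0.366% and 0.582% were called higher and 0.557%, 0.130% and 0.211% lower. A count of 0 in lists of this size is near those shares. Cd7, on the early lymphoid list, was 10.31 and 10.14 in Zeb2 Id2 DKO against 7.91 to 9.80 elsewhere. Its differences, 1.73 [0.74 to 2.72] against Zeb2 KO and 1.36 [0.37 to 2.35] against WT, did not pass (limma adjusted p = 0.198 and 0.245).

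Markers of other cells moved with some of these comparisons. The 12 neutrophil markers summed to 5760 to 15794 in Zeb2 Id2 DKO, 2795 to 4594 in Nfil3 Zeb2 DKO, 7173 to 16447 in Zeb2 KO and 1480 to 1894 in WT. Of these, 7 rose in Zeb2 Id2 DKO against WT, among them Ngp, Mpo, S100a9, Ltf, S100a8 and Elane, and 0 passed the test against Zeb2 KO or Nfil3 Zeb2 DKO. Without Zeb2 Id2 DKO replicate 2, only 1 rose against WT. Of 7 measured erythroid markers, 2 (Car2 and Hemgn) were higher than in WT, 0 than in Zeb2 KO and 3 (with Epb42) than in Nfil3 Zeb2 DKO, with sums of 2429 to 2851 in Zeb2 Id2 DKO and 533 to 1959 elsewhere. No B cell marker passed in these comparisons. T cell markers were lower for 3 of 9 against WT (Cd3d, Cd3g and Lat) and 2 of 9 against Nfil3 Zeb2 DKO (Cd3d and Cd3g). The NK cell marker Il2rb was lower in the same 2 comparisons, as 1 of 8. In value, 2 of the 8 rose against WT, Klrd1 by 0.67 [0.10 to 1.24] and Klrk1 by 0.73 [-0.13 to 1.60], and neither passed. NK cell markers summed to 1081 to 1145 in Zeb2 Id2 DKO, 1040 to 1059 in Nfil3 Zeb2 DKO, 688 to 1194 in Zeb2 KO and 760 to 1088 in WT. Against WT, 2 of 10 red pulp macrophage markers were lower (Hpgd and Vcam1) and 1 of 7 monocyte markers was higher (Ms4a6c). In value, 3 of the 10 macrophage markers rose, such as Slc40a1 (0.39 [0.04 to 0.74]), and 4 of the 7 monocyte markers did. The monocyte marker Treml4 went down (-0.49 [-0.75 to -0.22]), and neither it nor Slc40a1 passed. Macrophage markers summed to 765 to 886 in Zeb2 Id2 DKO and 1034 to 1443 in WT, and monocyte markers to 4091 to 4234 and 4226 to 4647. Of all genes, 0.878%, 0.366% and 0.582% were called higher against WT, Zeb2 KO and Nfil3 Zeb2 DKO and 0.557%, 0.130% and 0.211% lower. With some 1 array left out, the counts of erythroid, T cell, NK cell, macrophage and monocyte markers each reached 0. The part of RNA from neutrophils and these other cells in the pDC gene values was not tested.

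Over the 10 arrays, the genes with the pattern most like Siglech among 16963 named genes were Zscan30 (Pearson r = 0.965), Olig1 (0.961), Cd209e (0.955), Dapk2 (0.955) and Lrrc4c (0.945). These correlations are descriptions, since they rest mainly on the 2 Zeb2 Id2 DKO arrays that all share. Zscan30 was within the receptor range in every genotype, with means of 5.72 in Zeb2 Id2 DKO, 5.47 in Nfil3 Zeb2 DKO, 5.21 in Zeb2 KO and 5.25 in WT. Of the 3 comparisons with Zeb2 Id2 DKO, Zscan30 passed the test against WT only. Dapk2, a death-associated protein kinase, was 8.82 and 8.55 in Zeb2 Id2 DKO and 6.13 to 7.34 elsewhere. Lrrc4c, a leucine-rich repeat adhesion molecule, was 6.13 and 5.68 in Zeb2 Id2 DKO and 3.31 to 3.76 elsewhere, below the median of the receptor genes. Among the pDC genes, Lefty1 was the most like Siglech (r = 0.904, rank 18), followed by Cd300c (0.881, rank 37), Upb1 (0.759, rank 210) and Bcl11a (0.618). Dntt was at 0.474, Ptcra at 0.103, Spib at -0.02 and Cox6a2 at -0.18, and Id2 stood near the other end of the list at -0.89 (rank 16953).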

How the data were processed

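Total RNA of sorted splenic cDC1s was hybridised to 10 Affymetrix mouse gene arrays. The authors processed them in Affymetrix Expression Console with RMA, per the submitters' processing notes, and deposited linear intensities from 5.05 to 16019, of which log2 was taken here. Of 28853 probe sets, 21789 named 1 gene, 1621 several and 5443 none. For the 999 genes with several sets, that with the highest mean was used, which gave 19938 genes and no filter on level. A linear model of the 4 genotype means over all arrays was fitted with limma 3.58.1 in R 4.3.3 (6 residual degrees of freedom), 6 comparisons were made, and p-values were adjusted over all genes (Benjamini-Hochberg). A gene was called at an adjusted p under 0.05. The procedure was tested on simulated data. The number of arrays limits precision. Named genes were the 10 pDC genes, the targeted genes, up to 6 called members of each other list (by smallest p), E proteins, near paralogs, and the 5 genes most correlated with Siglech. Ly6d, Cd7, Cd8a, Itgae, Tlr3, Tlr7, Mctp2 and Klra17 were named after their values were seen. So were Cd209d, Xbp1, Lair1, Plac8, Pltp, Rpgrip1, Klrd1, Klrk1, Slc40a1 and Treml4. The pDC genes and lists were chosen with earlier results of these data known. In all, 19 alternative settings were run. Promoter sequences are from RefSeq (GRCm38.p6), matched by symbol for 8 of 10 genes.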

Additional observations from a re-analysis of the deposited data

How the results depend on the processing

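Over 19 alternative settings, 2869 of 3159 gene values kept their side of the threshold, 226 calls were lost, 64 were gained and 0 called values changed sign. Siglech kept its call against WT (adjusted p up to 0.0297) and Zeb2 KO (up to 0.0301). An offset of 16 ended the calls of Cd300c against WT (0.0639) and Nfil3 Zeb2 DKO (0.07), of Bst2 against WT (0.0613) and Zeb2 KO (0.0852), of Tlr9 against WT (0.0613) and of Irf7 against Nfil3 Zeb2 DKO (0.0778). Renewed quantile normalization ended the calls of Cd300c against Nfil3 Zeb2 DKO (0.0597) and of Tlr9 against WT (0.0539) and gave Lefty1 3 calls (0.0248, 0.0359 and 0.0385). Leaving out 1 array gave 67 to 760 called genes for Zeb2 Id2 DKO against WT, 25 to 148 against Zeb2 KO and 23 to 704 against Nfil3 Zeb2 DKO. It gave 0 to 165 for Zeb2 KO against WT, 1 to 7 for Nfil3 Zeb2 DKO against WT and 1 to 106 against Zeb2 KO. Of the 9 pDC genes, 1 to 4, 1 to 3 and 0 to 4 were then higher against WT, Zeb2 KO and Nfil3 Zeb2 DKO. Each highest count came without Zeb2 KO replicate 3. Fitting only the 2 genotypes compared gave 554, 20 and 833 for Zeb2 Id2 DKO in that order, 1 for Zeb2 KO against WT and 2 for Nfil3 Zeb2 DKO against WT. Zeb2 KO against WT gave 9 with probe sets of several genes kept and 0 with the offset. In a setting chosen after seeing the data, with WT replicate 1 left out together with Zeb2 KO replicate 3, the counts were 1104, 245 and 958 for Zeb2 Id2 DKO, 500 for Zeb2 KO against WT, 62 for Nfil3 Zeb2 DKO against WT and 266 against Zeb2 KO. Then 5 pDC genes were higher than in WT (Bcl11a joined, at 0.0489), and Cd300c (-0.93, adjusted p = 0.0147) and Siglech (-0.53, 0.0452) were lower in Zeb2 KO than in WT. Replicate numbers showed little sign of pairing: of 13 same-number pairs 1 correlated over 0.1 (-0.31 to 0.16), and 0 of 6 WT and Zeb2 KO arrays matched their own number best. In genotypes with 2 arrays, the 2 had equal and opposite correlations with any array of another genotype. The pairs are thus not independent and cannot settle whether arrays were paired. With the number as a replicate block, 183 genes were called between Zeb2 Id2 DKO and WT and 8 between Zeb2 KO and WT. The block left no call for Cd300c against WT (0.0784) and Nfil3 Zeb2 DKO (0.0713), Bst2 against WT (0.101) and Zeb2 KO (0.157), Irf7 (0.0506) and Tlr9 (0.0886) against WT, and Cadm1 against Zeb2 KO (0.0597). The causes were not tested.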
